A study of Mus musculus with 2 samples.

Results

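The 10 cyclic AMP phosphodiesterase genes Pde2a, Pde3a, Pde3b, Pde4a, Pde4b, Pde4c, Pde4d, Pde7a, Pde7b and Pde8a were examined in a map of accessible chromatin from activated mouse regulatory T cells. They are 10 of 21938 genes annotated as protein-coding on the autosomes, X and Y in GENCODE M21 (mm10). They were chosen by name, with earlier results of these data known. A region was attributed to a gene when it lay in the gene body, or when the nearest protein-coding transcription start site (TSS) to its strongest summit belonged to the gene and lay within 100 kb. By this rule the genes held 45 of the 26090 regions that remained after overlapping peaks of the thresholded list were merged. This list holds peaks with an irreproducible discovery rate (IDR), a measure of how consistently a peak ranks in 2 inputs, of 0.05 or below.

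Accessibility was measured by ATAC-seq, in which a transposase inserts sequencing adapters into open DNA. The cells came from a male adult mouse aged 4 months of the strain Foxp3CreERT2 x Rosa26YFP and are recorded as primary cells of bone marrow hematopoietic origin. In this strain the Foxp3 locus, which is active in regulatory T cells, drives a tamoxifen-inducible Cre recombinase, and the Rosa26 locus carries a yellow fluorescent reporter. How the cells were sorted or activated, and whether tamoxifen was given, is not stated in the sources used here. The 2 libraries are technical replicates 1 and 2 of biological replicate 1, and the deposited lists describe them together, with no control group. Neither an SD nor a test across samples could therefore be given, and the read depth is unknown. The comparisons set the phosphodiesterase genes beside all genes or all other regions of the same list, as descriptions.

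Cyclic AMP is made by adenylyl cyclases after hormones, adenosine or prostaglandins bind receptors coupled to the G protein Gs, and it acts through protein kinase A (PKA), the CREB family of transcription factors and the exchange factors of Rap. Phosphodiesterases hydrolyse it and so set how long and where in the cell the signal lasts. PDE2 and PDE3 enzymes hydrolyse cyclic GMP as well, whereas PDE4, PDE7 and PDE8 enzymes are selective for cyclic AMP. In regulatory T cells cyclic AMP is known as a mediator of suppression, and Foxp3 is known to repress Pde3b in mouse regulatory T cells.

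The label of the cells was checked against marker genes. Of all protein-coding genes 49.1% had a region within 1000 bp of a TSS. Of regulatory T cell markers 4 of 5 (Foxp3, Il2ra, Ctla4 and Ikzf2) had one, as did 5 of 6 T cell markers. The exceptions were Tnfrsf18 and Cd4, and Cd4 had one in the less strict pseudoreplicated list. Of the markers of other cells, 0 of 4 myeloid, 0 of 3 NK cell, 1 of 4 B cell (Pax5), 1 of 2 CD8 T cell (Cd8b1) and 1 of 3 erythroid markers (Gata1) had one. In the pseudoreplicated list Eomes, Cd14 and Epor had one too, and 55.7% of all protein-coding genes did. Counted as regions anywhere in the gene or nearest to it, 2 of 3 NK cell markers had some (Klrb1c 8 and Eomes 1), against 2 at Foxp3, and Cd79a and Itgam had 1 each. By that count 58.2% of all protein-coding genes had at least 1. What part other cells had in the results below was not tested.

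The sequences at the summits on which the account turns are printed first, as the 201 bases centred on the strongest summit of a region, 5′ to 3′ on the strand of the gene, from mm10. They are the summits of the 5 regions of these genes that lie in the strongest 5% of all regions, of the intronic Pde4d region that holds a complete cyclic AMP response element (CRE, the site bound by CREB), and of the region upstream of Pde4a. Capitals mark matches on either strand to the CRE TGACGTCA, its short form TGACG, the ETS core CCGGAA or CAGGAA, the RUNX site TGTGGT and the AP-1 site TGANTCA. A complete CRE also holds the short form on both strands.
Pde4d, strongest region (chr13:109776179-109776379, + strand): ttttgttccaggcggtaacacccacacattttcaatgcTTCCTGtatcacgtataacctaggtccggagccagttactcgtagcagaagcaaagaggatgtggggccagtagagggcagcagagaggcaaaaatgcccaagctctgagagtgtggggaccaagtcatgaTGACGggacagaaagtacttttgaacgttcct
Pde4d, region with the CRE (chr13:109822485-109822685, + strand): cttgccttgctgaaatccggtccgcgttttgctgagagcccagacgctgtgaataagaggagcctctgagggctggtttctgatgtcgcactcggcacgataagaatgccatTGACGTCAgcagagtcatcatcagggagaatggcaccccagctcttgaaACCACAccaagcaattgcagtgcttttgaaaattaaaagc
Pde4d, second strongest region (chr13:109837616-109837816, + strand): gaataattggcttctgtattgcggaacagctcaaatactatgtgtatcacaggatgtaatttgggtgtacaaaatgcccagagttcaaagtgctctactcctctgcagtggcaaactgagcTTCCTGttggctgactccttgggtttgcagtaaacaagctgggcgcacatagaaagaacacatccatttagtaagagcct
Pde3b, only region (chr7:114479912-114480112, + strand): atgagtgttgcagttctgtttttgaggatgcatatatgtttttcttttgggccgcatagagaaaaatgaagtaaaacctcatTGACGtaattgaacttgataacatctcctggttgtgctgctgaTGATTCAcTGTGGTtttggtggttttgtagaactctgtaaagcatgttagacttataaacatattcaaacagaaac
Pde7a, upstream region (chr3:19319158-19319358, - strand): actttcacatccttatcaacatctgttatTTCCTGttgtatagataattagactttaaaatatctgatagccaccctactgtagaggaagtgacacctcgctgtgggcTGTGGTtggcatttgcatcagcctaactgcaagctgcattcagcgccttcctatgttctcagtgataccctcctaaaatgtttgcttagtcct
Pde7a, intronic region (chr3:19258619-19258819, - strand): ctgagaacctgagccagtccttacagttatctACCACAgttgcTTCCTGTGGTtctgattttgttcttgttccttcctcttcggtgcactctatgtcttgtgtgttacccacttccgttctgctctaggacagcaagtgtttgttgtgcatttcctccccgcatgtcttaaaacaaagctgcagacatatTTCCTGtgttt
Pde4a, upstream region (chr9:21161474-21161674, + strand): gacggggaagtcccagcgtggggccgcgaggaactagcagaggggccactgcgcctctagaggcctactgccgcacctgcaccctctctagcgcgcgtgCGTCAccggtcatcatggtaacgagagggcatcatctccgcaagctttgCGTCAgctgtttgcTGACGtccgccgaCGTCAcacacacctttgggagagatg

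For 3 promoters with different base composition, the 250 bases before a start are given on the strand of the gene. Those of Pde4b-203 and Pde8a were credited to the RefSeq promoter table (GRCm38.p6), in which 7 of the 10 genes were found, and that of Pde7a-202 was read from mm10 at the GENCODE start. The RefSeq starts lie 35 bp (Pde4b-203) and 331 bp (Pde8a) upstream of the GENCODE starts used elsewhere here. Here capitals mark the CRE, its short form, the GC box GGGCGG bound by SP and KLF factors, and the ETS core. Of 32835 RefSeq promoters, accessible or not, 1.55% held the CRE, 17.8% the short form TGACG, 32.7% a GC box and 35.1% an ETS core in the same 250 bases.
Pde7a-202 (chr3:19311323-19311572, - strand): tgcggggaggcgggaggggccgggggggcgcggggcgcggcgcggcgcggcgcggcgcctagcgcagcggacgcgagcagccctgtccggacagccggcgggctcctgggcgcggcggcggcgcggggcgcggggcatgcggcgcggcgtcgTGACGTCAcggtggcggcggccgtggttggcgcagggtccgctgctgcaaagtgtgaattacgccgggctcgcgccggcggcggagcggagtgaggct
Pde8a (chr7:81213015-81213264, + strand): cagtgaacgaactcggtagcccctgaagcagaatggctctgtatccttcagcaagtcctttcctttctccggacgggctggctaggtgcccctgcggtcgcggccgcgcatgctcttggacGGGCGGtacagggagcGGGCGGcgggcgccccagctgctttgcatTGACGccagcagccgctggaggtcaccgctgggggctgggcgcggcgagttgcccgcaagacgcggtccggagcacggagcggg
Pde4b-203 (chr4:102569810-102570059, + strand): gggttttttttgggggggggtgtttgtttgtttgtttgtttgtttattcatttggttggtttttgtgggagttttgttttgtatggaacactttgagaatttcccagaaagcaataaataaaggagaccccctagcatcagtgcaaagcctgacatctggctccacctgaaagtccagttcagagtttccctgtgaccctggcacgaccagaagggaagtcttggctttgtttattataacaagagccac

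Accessible regions were spread unevenly over the 10 genes. Pde4d held 19, Pde4b 9, Pde2a and Pde7a 6 each, Pde4a and Pde8a 2 each and Pde3b 1, while Pde3a, Pde4c and Pde7b held none. At least 1 region was present in 7 of the 10 genes, against 58.2% of all protein-coding genes. The median was 2 regions per phosphodiesterase gene, against 1 over all genes. These counts were not adjusted for gene size. Per 100 kb of territory, defined below, the 10 genes together held 1.26 regions, against 1.47 over all genes. All 45 regions were overlapped by a region of the pseudoreplicated list, and their highest IDR was 0.0385. The ranking value of the peak in each of the 2 inputs compared for the IDR was read as −log10 p, here and below. It agreed within 2-fold for 45 of 45 regions, against 98.2% of the other regions. Whether these inputs are the 2 libraries or random splits of their pooled reads is not stated in the sources used here, and the regions had already passed an IDR filter on the same inputs.

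**Figure D1:**
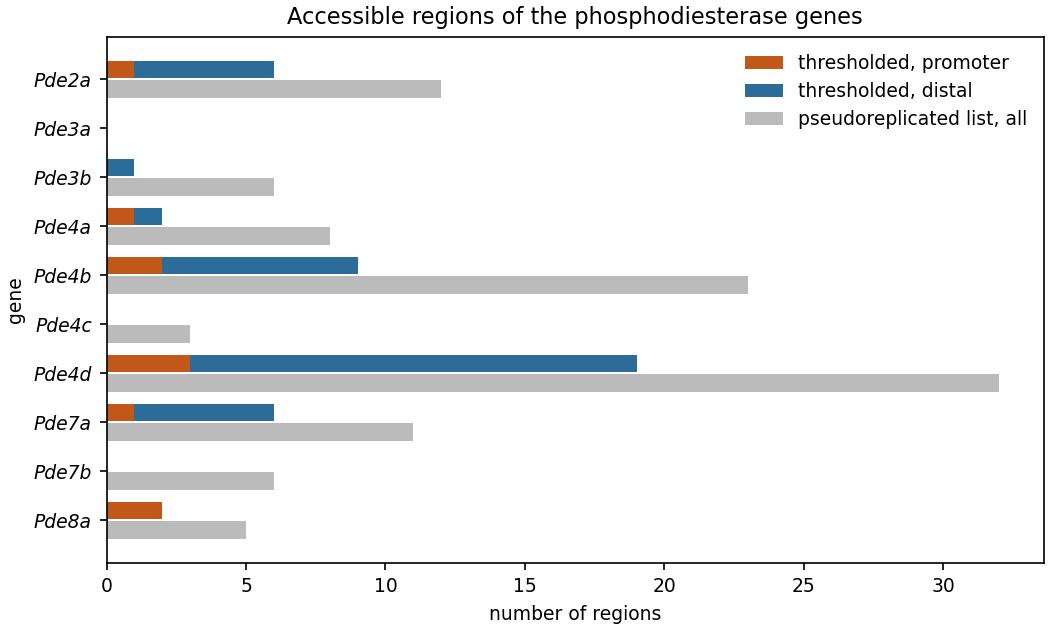
Number of accessible regions (horizontal axis) for each of the 10 genes (vertical axis). The upper bar of a gene is the thresholded list, split into regions within 1000 bp of a TSS and distal ones, and the grey lower bar is the pseudoreplicated list. Pde4d leads with 19 and 32, and Pde3a has none in either.

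The high counts of Pde4d and Pde4b went with their size. Pde4d, which encodes the enzyme with the most annotated transcripts of these genes (20), spans 1504 kb at chr13:108449948-109953461. By count it had rank 10 of all genes, and 12 genes had as many regions or more. Its territory, the bases nearest to its TSSs, measured 1565 kb, so that it held 1.21 regions per 100 kb, against 1.47 over all genes. Pde4b (chr4:102087543-102607259) held 1.43 per 100 kb. Per 100 kb the order was Pde2a (4.80), Pde4a (3.38), Pde7a (3.17), Pde4b (1.43), Pde8a (1.24), Pde4d (1.21) and Pde3b (0.519). Pde2a (chr7:101421691-101512827) thus had the densest regions, with 81.2% of genes lower, and Pde4d had 55.0% of genes lower. The 10 genes together held 1.26 regions per 100 kb. With no replicates, the spread of these densities could not be given.

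Few of these regions were promoters. A region within 1000 bp of any annotated start of a protein-coding gene, noncoding transcripts included, is called a promoter region here, and 10 of the 45 regions (22.2%) were such, against 43.6% of all regions. The other 35 were distal, 29 of them intronic and 6 intergenic by their summit. By gene, 6 of 10 had a promoter region (Pde2a, Pde4a, Pde4b, Pde4d, Pde7a and Pde8a), against 49.1% of all protein-coding genes. At the 5′ end of the gene record alone 3 of 10 had one (Pde4a, Pde7a and Pde8a), against 45.2% of all genes, so whether the share lay above or below that of all genes depended on which starts were counted. At coding starts alone, the same 6 genes had a thresholded region, against 47.8% of all genes. One Pde4d promoter region (chr13:109922251-109922555, signal 10.2) lay near the start of a noncoding transcript, 494 bp from its summit, and near no coding start. In the pseudoreplicated list 9 of 10 genes had a promoter region, Pde3a being the exception, against 55.7% of all genes. At coding starts alone it was 8 of 10, without Pde4c as well, against 54% of all genes.

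The signal value of a region is the enrichment the authors' peak caller gave to its strongest peak. Over the 45 regions it had a median of 11.0 (quartiles 8.20 and 12.8), against 13.6 (quartiles 9.90 and 18.0) over the other 26045. Promoter regions of these genes ran from 4.98 to 12.6 with a median of 9.44 (n = 10), against a median of 15.2 for the other 11364 promoter regions. The strongest of them, at Pde8a, thus lay under the median of other promoters. Distal regions had a median of 11.4 (n = 35), against 12.7 for the other 14681 distal regions. The median width was 582 bp for the phosphodiesterase regions and 637 bp for the others. It was 653 and 825 bp for promoter regions, and 561 and 527 bp for distal ones.

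**Figure D2:**
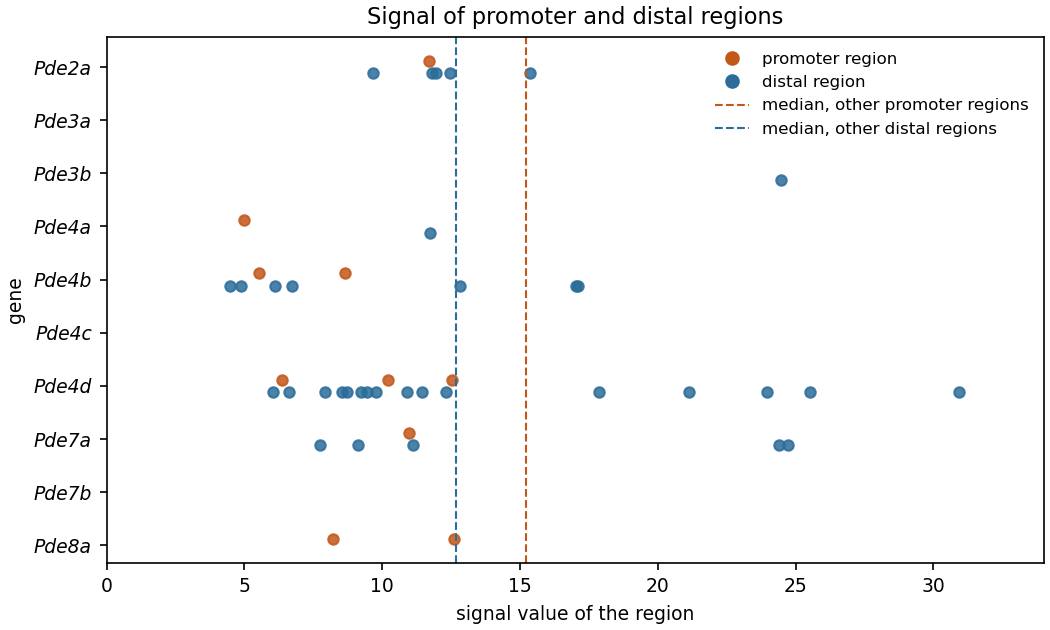
Signal value of each of the 45 regions (horizontal axis) by gene (vertical axis), with promoter regions in orange and distal regions in blue. Dashed lines are the medians of the other promoter regions (15.2) and of the other distal regions (12.7). No promoter region of these genes reaches the orange line, and 5 distal regions lie above 24.3.

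The strongest signals of these genes were distal. The strongest 5% of all regions began at a signal of 24.3, and 5 phosphodiesterase regions lay above it, at Pde4d (30.9 and 25.5), Pde7a (24.7 and 24.4) and Pde3b (24.5). The next, in Pde4d at chr13:109239125-109239706, had 24.0. All 5 were distal, against 34.4% of the 1305 regions in this strongest 5%, and 4 lay in introns. Of all 45 phosphodiesterase regions 35 were distal, so a largely distal set was to be found at any strength.

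Pde4d encodes a cyclic AMP-specific enzyme that is anchored at many sites in the cell through its alternative amino termini. Its strongest region (chr13:109775923-109776483) lay in intron 5 of the 14 of transcript Pde4d-208, 1326 kb from the 5′ end of the gene. The signal of 30.9 exceeded that of 99.7% of all regions. The −log10 p of 301, with 164 and 137 in the 2 inputs, exceeded that of 93.7%. The second strongest (chr13:109837352-109838250, signal 25.5) lay farther along the same intron and had 128 and 123 in the inputs. Between them lay a region (chr13:109822142-109822878) of signal 21.1 whose −log10 p of 541, with 281 and 270.2 in the inputs, exceeded that of 99.5% of all regions. Its signal exceeded that of 87.5%. This region held the complete CRE TGACGTCA printed above, at 12 to 19 bp from the summit (chr13:109822597-109822604).

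The regions of Pde4d fell into groups. With a gap of 50 kb as the limit, 6 regions lay over 30.2 kb at 760 to 790 kb from the 5′ end of the gene, with signals of 6.06 to 24.0. A further 4 lay over 69.8 kb at 1326 to 1395 kb (10.9 to 30.9) and 4 over 24.5 kb at 1453 to 1477 kb (6.35 to 12.5). A pair lay at 1097 to 1098 kb, with 9.22 and 12.3, and single regions lay 23.5 kb upstream of the gene and at 174 and 894 kb. Of the 18 regions with a summit inside Pde4d, 17 lay downstream of the midpoint of the gene, at 752 kb, among them the 6 that begin just past it. In the last 30% of the gene lay 10 of 18. Pde4b, which encodes a PDE4 enzyme known from the activation of T cells and monocytes, had 8 of 8 downstream of its midpoint and in its last 30%. In the other 254 protein-coding genes of 300 kb or more with a region, 618 of 1237 regions lay downstream of the midpoint and 426 (34.4%) in the last 30%. Both comparisons were chosen after the values were seen, and regions of 1 group are neighbours, not independent.

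**Figure D3:**
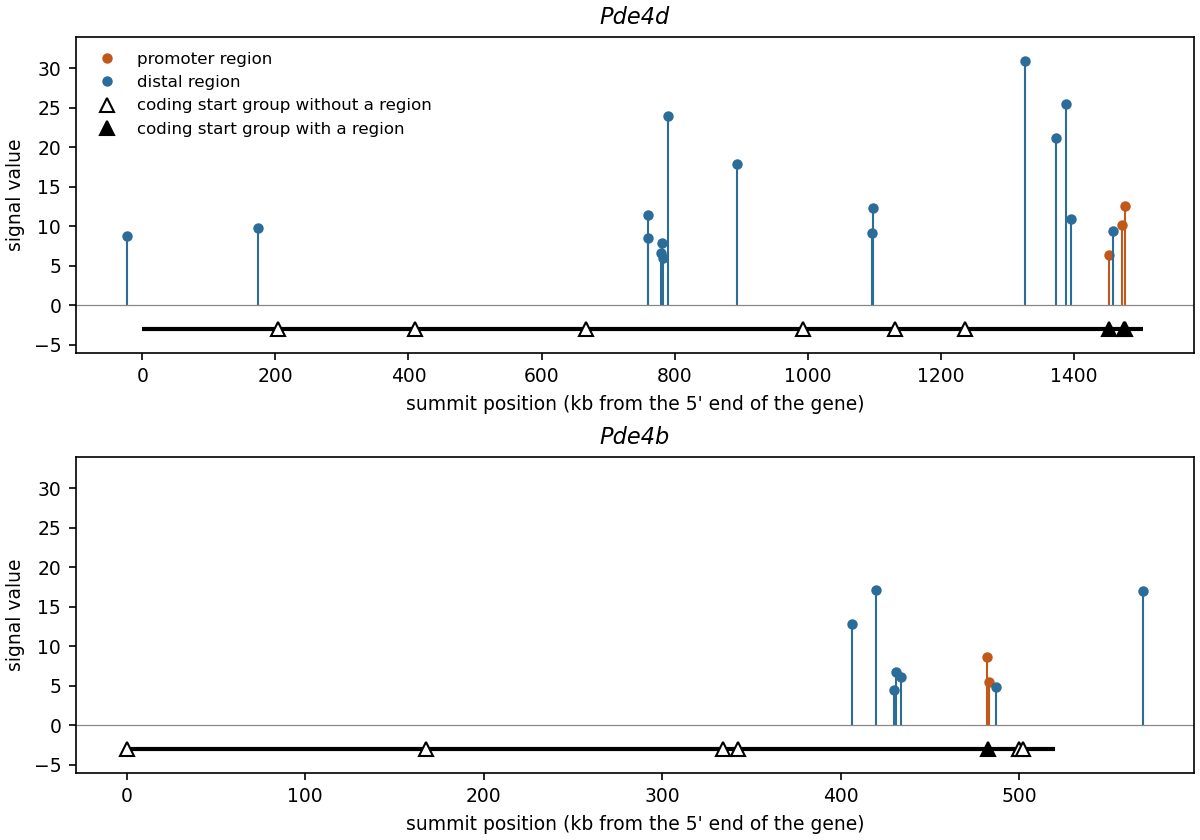
Signal value (vertical axis) of each region against its distance in kb from the 5′ end of the gene (horizontal axis) for Pde4d (top) and Pde4b (bottom). The black bar is the gene and triangles are groups of coding starts, filled where a thresholded region lies within 1000 bp; at the right end of Pde4d a filled triangle covers an open one. In Pde4b the regions lie toward the downstream end, and in Pde4d 6 lie near the middle and 10 in the last 30% of the gene, where the filled starts are too.

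Pde4b held 9 regions, 8 of them over 81.4 kb at 406 to 487 kb from its 5′ end. The strongest (chr4:102506381-102507591) lay in intron 7 of the 16 of Pde4b-208, with a signal of 17.1 and 137 and 127 as −log10 p in the inputs. A region 66.9 kb from the nearest TSS, beyond the 3′ end of the gene (chr4:102656542-102656859), had a signal of 17.0. Its −log10 p was 60.5, against 255 for the strongest. The other 7 ran from 4.48 to 12.8. The strongest Pde4b promoter region (chr4:102569023-102569578) had 8.66, and a neighbour that covers the start of Pde4b-203 (chr4:102569978-102570607) had 5.53.

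Which starts were accessible was read from groups of coding starts, in which starts of 1 gene that follow each other within 1000 bp count once. The 10 genes had 30 such groups, and 7 had a thresholded region within 1000 bp, against 38.5% of the 29174 groups of all genes. A further 5 had only a pseudoreplicated region. In PDE4 enzymes, long forms carry a pair of upstream conserved regions through which PKA phosphorylation activates them, and short forms from internal promoters lack the first of these. Split by exon number, a split made after the values were seen, Pde4b and Pde4d had 9 groups whose longest transcript has 15 to 17 exons (659 to 803 codons), and 0 had a thresholded region. Their nearest summits lay 30.04 to 406 kb away. Of their 6 groups with 10 exons (484 to 584 codons), 3 had one. These were Pde4b-203 (564 codons, chr4:102570095), Pde4d-207 (584 codons, chr13:109903106) and Pde4d-203 (517 codons, chr13:109926844). The Pde4d-205 start, of 15 exons, had a region in the pseudoreplicated list alone, with a signal of 6.41.

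Pde4a was the other way round. Its most upstream start (Pde4a-202, 844 codons, 15 exons, chr9:21165714) had a thresholded region, at a signal of 4.98. The starts of Pde4a-203 (787 codons) and Pde4a-201 (610 codons, 10 exons) had only pseudoreplicated regions, of 7.24 and 5.40. Signals of the 2 lists come from the same caller, and the weakest of these Pde4a signals is the one past the IDR threshold. By −log10 p the order differed, with 31.4 at Pde4a-202, 15.1 at Pde4a-203 and 9.43 at Pde4a-201. Of the genes with 3 or more groups and an accessible one, Pde4a, Pde4b and Pde4d belonged here, and in 2 of these 3 the most upstream group had no thresholded region, against 32.3% of 668 genes. Pde2a, which encodes an enzyme that cyclic GMP activates, had a region at the start of Pde2a-204 (945 codons, chr7:101450520) and none within 1000 bp of the upstream start (939 codons, chr7:101421691). Pde7a likewise had one at Pde7a-202 (482 codons, chr3:19311322) and none at Pde7a-201 (456 codons, chr3:19265008).

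**Figure D4:**
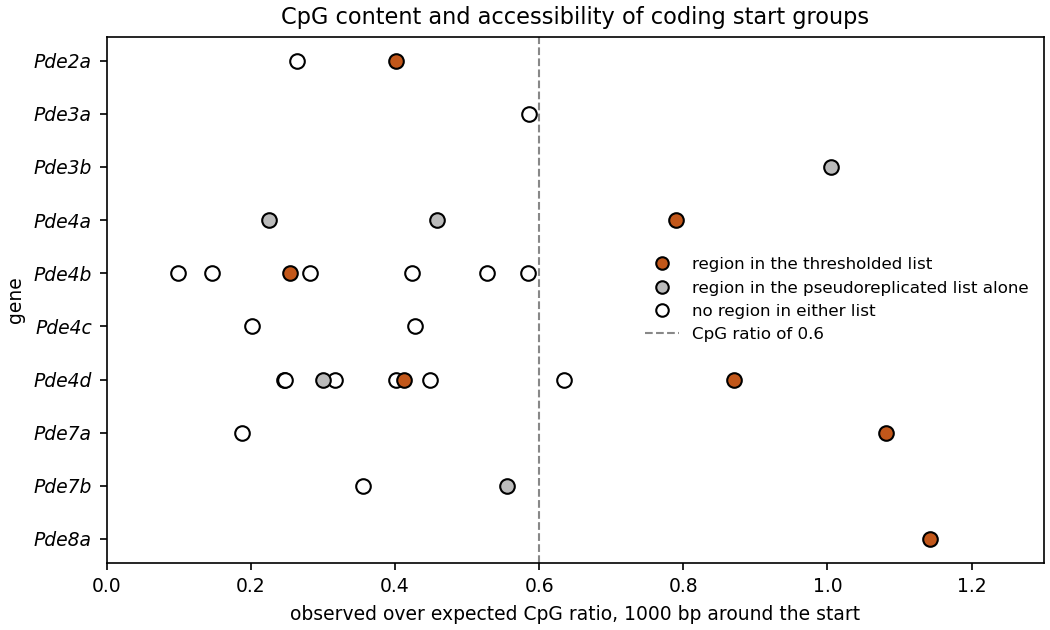
Observed over expected CpG ratio in the 1000 bp around each group of coding starts (horizontal axis) by gene (vertical axis). Orange points have a region in the thresholded list, grey points one in the pseudoreplicated list alone and open points none, and the dashed line is a ratio of 0.6. To its right 4 of 6 points are orange, and to its left 3 of 24.

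Of the 7 accessible starts 4 were rich in CpG, the dinucleotide that marks CpG island promoters. With an observed over expected ratio of 0.6 or more as CpG-rich, 4 of 6 CpG-rich groups (66.7%) had a thresholded region, against 75.1% of such groups of all genes. They were Pde8a (ratio 1.14), Pde7a-202 (1.08), Pde4d-207 (0.871) and Pde4a-202 (0.790). The 2 without were Pde3b (1.00) and Pde4d-208 (0.634). Of 24 CpG-poor groups, 3 (12.5%) had one, Pde2a-204 (0.402), Pde4d-203 (0.412) and Pde4b-203 (0.255), against 15.2% over all genes. The printed promoter of Pde4b-203 has 43.2% G and C, those of Pde8a and Pde7a-202 68.8% and 81.6%.

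Pde7a encodes a cyclic AMP-specific enzyme known from T cells. It is on the minus strand of chromosome 3 (chr3:19223108-19311322) and held 6 regions. The strongest (chr3:19258498-19259171) lay in intron 2 of the 12 of Pde7a-202, with a signal of 24.7 and −log10 p of 142 and 137 in the inputs. The next (chr3:19318838-19319515) lay 7.94 kb upstream of the gene with 24.4, and 100.4 and 83.7 in the inputs. The promoter region (chr3:19310713-19311933) had 11.0. The remaining 3, at 21.4 kb upstream, 5.72 kb and 65.5 kb into the gene, had 9.12, 7.74 and 11.1, and with an IDR limit of 0.01 only the first 3 named here remained.

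Pde2a held 6 regions with signals of 9.67 to 15.3, the narrowest range of the genes with more than 2. The strongest (chr7:101466100-101467128) lay in intron 2 of the 30 of Pde2a-204, and the promoter region (chr7:101450407-101451279) had 11.7. The 5 regions in the gene body also lie in Gm45837, a read-through gene annotated as protein-coding, and the sixth, 36.7 kb from the nearest TSS, overlaps the noncoding RNA gene Gm35363.

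Pde4a (chr9:21165714-21213248) had an upstream region (chr9:21161121-21161858) 4.14 kb before its start, with a signal of 11.7, above the 4.98 of its promoter region (chr9:21164907-21165376). Pde8a, which encodes an enzyme with high affinity for cyclic AMP (chr7:81213596-81334533), had 2 neighbouring promoter regions and no distal one. The first (chr7:81212236-81212911) had 8.20 and the other (chr7:81212974-81213734), which covers the start, had 12.6.

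Pde3b, a target of Foxp3 repression, had a single region (chr7:114479617-114480597), in intron 1 of 15, 64.7 kb from the 5′ end of the gene. Its signal was 24.5 and its −log10 p was 286, with 109 and 159 in the 2 inputs. The CpG-rich promoter of Pde3b held no thresholded region. In the pseudoreplicated list 3 regions lay within 1000 bp of its start, with signals of 5.49 (chr7:114414896-114415223), 6.04 (chr7:114415421-114416032) and 3.93 (chr7:114416126-114416619) and an IDR of 0.388. That IDR is the highest found at these loci and does not set Pde3b apart. Each of the other genes with regions in the pseudoreplicated list alone also had some at this value. All 3 promoter signals lay well under the intronic one.

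The genes without a thresholded region differed among themselves. Pde3a, a paralog of Pde3b (chr6:141249269-141507448), had none in the pseudoreplicated list either, and the nearest summit to its start lay 432 kb away. Pde7b (chr10:20398004-20725078) had 6 pseudoreplicated regions of 3.71 to 7.42, among them 1 at its start with 4.05 (chr10:20724952-20725188). Pde4c (chr8:70723720-70751186) had 3, of 5.95 to 9.72, and the strongest (chr8:70729816-70730513) lay at a noncoding transcript's start with an IDR of 0.210. A strong region (chr10:20834670-20835573, signal 22.8) had Pde7b as its nearest gene but lay 110 kb from the TSS, just outside the limit of 100 kb. The farthest region inside the limit lay 83.1 kb from the nearest TSS, in Pde4d, with 17.9.

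The pseudoreplicated list held 106 regions of the 10 genes, of which 61 had no thresholded counterpart. These had signals of 2.40 to 11.4 with a median of 5.74 and IDR values of 0.0545 to 0.388, and 13 of them lay within 1000 bp of a TSS. Of the 106, 42.5% were also in the thresholded list, against 52.0% of all pseudoreplicated regions.

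Sequence at the summits was compared in 201-base windows with 95% Wilson intervals, which cover counting error only. Promoter regions were 22.2% of the phosphodiesterase regions and 43.6% of all regions, so shares over all windows compare unlike mixtures. The CRE was present in 2 of 45 windows (4.44%, interval 1.23 to 14.8), against 2.10% of the other 26045. One is the intronic Pde4d summit printed above. The other is in the Pde7a promoter (chr3:19311413-19311420), 91 to 98 bp upstream of the Pde7a-202 start and 27 to 34 bp from the summit. The short form TGACG was in 14 windows (31.1%, interval 19.5 to 45.7), against 20.4%. By class it was in 4 of 10 promoter windows, against 29.1%, and in 10 of 35 distal ones, against 13.6%. The window upstream of Pde4a held 4 matches to TGACG, and the whole region 5, the most of the 45.

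The ETS core was in 18 windows (40.0%), against 47.0% of the others, and all 18 were distal. None of the 10 promoter windows held it, against 43.6% of other promoter windows. The GC box was in 2 of 10 promoter windows, against 56.8%, and in 4 of 45 windows overall (8.89%, interval 3.51 to 20.7), against 31.1%. Of the distal windows 2 of 35 held it, against 11.3%. These windows are centred on summits, and the 250 bases before the 7 accessible starts gave other counts. There an ETS core was in 2 of 7 (Pde2a-204 and Pde4d-207), against 35.1% of RefSeq promoters, and a GC box in 4 of 7 (Pde4a-202, Pde4d-207, Pde4d-203 and Pde8a), against 32.7%. The 7 starts were taken for having a region, whereas the RefSeq promoters include those without one, so the sets are unlike. The RUNX site was in 10 windows (22.2%), against 21.2%, and the NFAT core GGAAAA in 10 (22.2%, interval 12.5 to 36.3), against 12.1%. By class the RUNX site was in 2 of 10 promoter windows, against 10.3%, and in 8 of 35 distal ones, against 29.6%. AP-1 was in 2 windows (4.44%), against 9.40%, one of them the Pde3b summit, where it lies next to a RUNX match. In the intronic Pde7a window an ETS and a RUNX match overlap, which was so in 1 of 45 windows (2.22%) and in 0.392% of the others, a pattern looked for after the sequence was seen.

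The remaining motifs were the TCF/LEF site CTTTGA in 5 windows (11.1%), against 13.0%, the E-box CACGTG in 5 (11.1%), against 6.60%, and the KLF site CACCC in 20 (44.4%), against 47.9%. The forkhead site TGTTTAC was in 1 (2.22%), against 3.09%, and the NF-kB consensus in 1 (2.22%), against 1.76%. The longer ETS site ACAGGAAGT or ACCGGAAGT and the CTCF core were in 0 of 45, with an interval that reaches 7.87%, against 5.70% and 1.31%. CACCC and GGGCGG can overlap each other and GGAAAA can overlap the ETS core. The CTCF core was sought as a strict word in which all bases but 1 are fixed. Sites that differ from this word would be missed, so its absence does not show that these summits lack CTCF sites. A match describes the letters in a window and is no evidence of a bound factor.

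The rest of the pathway was described by gene lists chosen by name, also with earlier results of these data known. Beside them stand the shares of 58.2% of all genes with a region and 49.1% with a promoter region. Counts per gene are not adjusted for size. The territory was, for example, 43.1 kb at Csk and 393 kb at Akap13. Of the 15 other cyclic nucleotide phosphodiesterases 7 had a region and 3 a promoter region. Pde11a, which encodes an enzyme of dual specificity, had 9, Pde6h, which encodes an inhibitory subunit of cone phosphodiesterase, had 4 and Pde10a had 2, while Pde1b and Pde1c, calmodulin-dependent enzymes, had none. Of 10 adenylyl cyclases 4 had a region and 3 a promoter region, with 7 at Adcy7, the cyclase best known from immune cells, 2 each at Adcy1, Adcy3 and Adcy9 and none at Adcy2 or Adcy10. Of 14 genes for Gs and its receptors 10 had a region and 6 a promoter region. Among them the prostaglandin E2 receptor gene Ptger2 had 7 and the adenosine receptor gene Adora2a had 5, and Adora2b and Drd1 had none.

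Downstream of cyclic AMP, 7 of 9 genes for PKA subunits and inhibitors had a region and 6 a promoter region. Prkar2b, a regulatory subunit, had 5, the catalytic subunit gene Prkacb and the inhibitor gene Pkib had 4 each, and Pkia and Prkar2a had none. Of 12 other effectors and nuclear targets 11 had a region and 9 a promoter region, with 9 at Crtc3, a coactivator of CREB, 7 at Csk, a kinase that PKA activates to restrain Lck, 6 at Rapgef4 and none at Popdc3. Of 15 A kinase anchoring proteins, which hold PKA near its targets, 11 had a region and 9 a promoter region, with 22 at Akap13, 7 at Akap11, 6 at Akap12 and none at Akap1 or Akap3. The median was 2 regions per gene for the 10 phosphodiesterase genes and for each of these 3 lists, 3.5 for Gs and its receptors, and 0 for the other phosphodiesterases and for the cyclases.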

How the data were processed

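ATAC-seq was measured in 2 libraries, technical replicates of 1 biological replicate, which were analysed as pooled. The authors deposited 3 peak lists on mm10, which derive from 1 alignment per the README of each library. The deposited signal value is the caller's fold enrichment per peak, used as a ratio of unstated reference. The deposited −log10 columns hold the caller's p-value per peak and, in the ranked list, the IDR. The ranked list also holds the ranking value of the peak in each of the 2 inputs, read here as −log10 p. The deposited score, at most 1000, was not printed. Not given in the sources used here are the aligner, the caller, read filters and any shift of reads for the transposase.

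Peaks overlapping by 1 bp or more were merged, and the strongest peak of a region gave its signal and summit. Genes and starts came from GENCODE M21, coding starts within 1000 bp of the next were chained into groups, and CpG ratios used the 1000 bp around a start. Motifs were sought on both strands in 201 bases. All values are descriptions, since a group of 1 biological replicate allows no test. On simulated peaks, the distance from each merged region to its nearest start was checked against a direct search. The merging itself and the gene assigned were not checked in this way. Named were all 10 genes, their strongest promoter and distal regions, regions in the strongest 5% and, of each pathway list, at most 3 genes with most regions and at most 2 without any. Not every gene this rule names is reported here. The genes, lists and alternatives were chosen with earlier results of these data known. Software was numpy 2.4.6, pandas 2.3.3, scipy 1.17.1, pysam 0.24.0 and matplotlib 3.10.9 under Python 3.11.15.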

Additional observations from a re-analysis of the deposited data

How the results depend on the processing

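The 45 regions became 106 in the pseudoreplicated list and 83 when every listed peak was counted, and the median signal of 11.0 became 7.16 and 6.63. With 1 TSS per gene, 3 of the 10 genes in place of 6 had a promoter region, against 45.2% of all genes in place of 49.1%. With RefSeq starts, chosen after seeing the data, 5 had one. A motif window of 50 bp on each side gave shares of 11.1% for NFAT, 0% for forkhead and 28.9% for KLF. Shares of the other regions in this window are not given here, so no change relative to them can be read. The IDR limit of 0.01 left 31 regions and 5 promoter genes, and limits of 50 and 20 kb left 44 and 41 regions. For the RefSeq starts and for this IDR limit, the share of all genes with a promoter region is not given here. Altogether 52 summary values recomputed with alternatives, the IDR and distance limits included, stayed within 1.5 times (counts) or within their 95% interval. Another 8 did not. Intervals of motif shares in 45 windows are wide, so staying within them shows little. Of 50 recomputed counts for single genes, 38 stayed within 1.5 times. Leaving out a replicate was not run, and no paired analysis was possible because no list belongs to a single library. The unknown depth limits what the empty loci of Pde3a, Pde4c and Pde7b can show.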
